A study of Mus musculus with 48 samples.

Results

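CD45+ cells of subcutaneous B16F10 melanomas that lacked CD4 and CD8 on their surface were compared between Yap-cKO and WT mice, and 8 of the 48 libraries of the series, 4 of each genotype, hold this population. The libraries were chosen by their labels, as the tumor samples sorted live as CD45+ CD4- CD8- cells, and no measured value entered the choice. B16F10 is a transplantable melanoma line from C57BL/6 mice. Both genotypes were labelled C57BL/6J, and the study used young adult animals with littermates as controls. In Yap-cKO mice, a Cre recombinase driven by the Cd4 promoter deletes loxP-flanked Yap and switches on an EYFP reporter, and the labels call the other mice WT without further alleles. RNA was purified from the sorted cells, amplified as full-length cDNA with the SMART-Seq kit and sequenced as paired-end reads.

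The sort removes conventional T cells and keeps the other leukocytes: macrophages, monocytes, neutrophils, dendritic cells, B cells, NK cells and innate lymphoid cells. Cd4-driven Cre acts during T-cell development, so most cells of this gate are not its intended targets, and the comparison asks what the remaining leukocytes of a tumor look like when T cells lack Yap. Yap is the transcriptional coactivator at the end of the Hippo kinase cascade, which binds TEAD factors and switches on genes such as Ccn1 and Ccn2 in adherent cells. Levels are CPM, the counts of a gene relative to the TMM-scaled size of its library, log2 fold changes are Yap-cKO over WT with their SE, and calls required a Benjamini-Hochberg adjusted p under 0.05 in edgeR's quasi-likelihood test together with an absolute log2 fold change above 1. Unless another setting is named, counts of calls in edgeR are those of the fit to these 8 libraries with a minimum of 10 counts in 4 of them.

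The libraries held 18638913 to 23661203 counts on genes, so that 3 counts in a library stood for 0.127 to 0.161 CPM. The leukocyte markers were where the gate puts them. Ptprc, which encodes CD45, measured 512 ± 65.9 CPM in WT libraries and 680 ± 178 CPM in Yap-cKO libraries (SD, n = 4 each), the macrophage and monocyte lysozyme gene Lyz2 18290 ± 3484 and 13910 ± 4702 CPM, and Csf1r, the receptor for the macrophage growth factor CSF1, 1078 ± 278 and 1285 ± 188 CPM. The B-cell receptor subunit gene Cd79a measured 420 ± 122 and 150 ± 70.4 CPM and the NK receptor gene Ncr1 43.5 ± 5.01 and 50.3 ± 7.68 CPM. The T-cell receptor subunit gene Cd3e was low, at 1.65 ± 0.387 and 2.10 ± 0.703 CPM. Its list, that of alpha-beta T cells, summed to 159.9 to 185.5 CPM in WT and 164.5 to 240.2 CPM in Yap-cKO libraries. The highest member was Lck, at means of 46.8 and 50.9 CPM. Of the 19 genes of this list, 14 had a positive and 5 a negative log2 fold change, with 0 called in edgeR and 1 by DESeq2.

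Y-linked genes separated the libraries before any other comparison. Their summed level was 115, 84.1, 106 and 2.04 CPM in WT replicates 1 to 4 and 1.99, 2.98, 3.34 and 3.37 CPM in Yap-cKO replicates 1 to 4. WT replicate 4 therefore sat with the Yap-cKO libraries, and outside it genotype and Y-linked RNA cannot be told apart. Chromosome Y genes were left out of every test below, and values of WT replicate 4 are given beside the results. The labels do not say that the 4 libraries of a genotype came from separate mice, so p-values measure the spread between these samples.

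Of 13622 genes tested, 135 (0.991%) were called, and 126 of them (0.925%) were lower and 9 (0.0661%) higher in Yap-cKO libraries. The values of the genotypes did not overlap at any of the 135, as was the case at 7.36% of all genes in the lower and 4.13% in the higher direction. Among the genes that fell, 6 were on the melanoma list, 4 on the cell cycle list, 2 on the endothelial list, 2 on the list of Yap and TEAD targets, 1 on the fibroblast or pericyte list and 1 on the plasma cell list, and the others were on none of the lists. Those that rose included the inducible heat shock genes Hspa1a and Hspa1b, the NF-kB inhibitor gene Tnfaip3 and Gata3. An unadjusted p under 0.05 was reached by 1404 genes (10.3%) that were lower and 1020 (7.49%) that were higher. The calls rested on the full set of libraries. There were 20, 11, 41 and 3 calls without WT replicates 1, 2, 3 and 4, and 46, 1, 32 and 118 without Yap-cKO replicates 1, 2, 3 and 4, and DESeq2 on the same counts called 525 genes.

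Melanocyte genes were the group with the most called members. Pigment cells make melanin in melanosomes with the enzymes tyrosinase (Tyr), Tyrp1 and Dct on a scaffold of Pmel, and the transcription factors Mitf and Sox10 drive these genes. B16F10 cells keep this program and carry no CD45. Mitf binds the M-box, an extended E-box with the core TCATGTG. This core, or its reverse complement CACATGA, lay in the 250 bases before a RefSeq start site in 3.72% of 27025 genes of GRCm38.p6 and in 4 of the 7 genes of the melanoma list that had an entry there, which are Tyr, Tyrp1, Dct and Trpm1. Their windows are shown because this group carries the largest share of calls, each 5′ to 3′ on the gene's own strand and ending 1 base before the start site, with the core in capitals.
Tyr, chr7:87493513-87493762, minus strand: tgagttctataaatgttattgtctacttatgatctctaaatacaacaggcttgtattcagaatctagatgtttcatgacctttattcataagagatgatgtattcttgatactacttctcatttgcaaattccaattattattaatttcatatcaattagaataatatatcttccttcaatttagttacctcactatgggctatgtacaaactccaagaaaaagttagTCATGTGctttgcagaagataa
Tyrp1, chr4:80833963-80834212, plus strand: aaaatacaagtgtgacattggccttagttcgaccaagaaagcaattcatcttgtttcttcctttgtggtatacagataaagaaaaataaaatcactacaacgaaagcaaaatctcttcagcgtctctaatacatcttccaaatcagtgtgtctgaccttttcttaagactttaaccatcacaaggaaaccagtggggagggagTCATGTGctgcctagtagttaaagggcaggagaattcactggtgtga
Dct, chr14:118052247-118052496, minus strand: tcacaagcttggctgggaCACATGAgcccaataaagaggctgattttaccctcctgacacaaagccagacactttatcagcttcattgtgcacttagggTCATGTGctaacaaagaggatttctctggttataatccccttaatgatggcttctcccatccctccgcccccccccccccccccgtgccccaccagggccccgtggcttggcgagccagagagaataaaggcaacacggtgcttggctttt
Trpm1, chr7:64153585-64153834, plus strand: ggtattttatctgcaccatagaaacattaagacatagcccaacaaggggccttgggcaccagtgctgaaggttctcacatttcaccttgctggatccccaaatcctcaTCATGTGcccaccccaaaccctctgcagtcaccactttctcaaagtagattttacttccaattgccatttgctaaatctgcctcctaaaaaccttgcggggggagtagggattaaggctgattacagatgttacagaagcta
The Dct window held the core on each strand. Among all 126 genes that fell, 87 had an entry and 10 of these (11.5%) held the core, the other genes being Slc24a5, Mc1r, Tspan10, Kcnj13, Trim63, Rab34 and Fez1. A match is a description of these letters and shows no binding.

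Dct, which encodes dopachrome tautomerase, measured 570, 381, 318 and 483 CPM in WT replicates 1 to 4 and 29.5, 59.3, 117 and 114 CPM in Yap-cKO replicates 1 to 4. Pmel, the fibril protein of the melanosome, measured 334, 339, 218 and 341 CPM against 28.2, 55.8, 68.5 and 103 CPM. Every WT library lay above every Yap-cKO library at both genes, and the lowest Yap-cKO value was that of replicate 1. The log2 fold changes were -2.45 ± 0.40 for Dct (adjusted p = 0.0287) and -2.27 ± 0.34 for Pmel (adjusted p = 0.0241). Tyr, the rate-limiting enzyme of melanin synthesis, was at 44.0, 33.5, 27.6 and 40.8 CPM in WT libraries and 3.44, 6.42, 13.5 and 9.11 CPM in Yap-cKO libraries, again without overlap (log2 fold change -2.16 ± 0.36, adjusted p = 0.0307). Per length, the levels in WT libraries were highest for Dct (296 TPM), Pmel (195 TPM), the melanosomal antigen gene Mlana (188 TPM) and Tyrp1 (173 TPM).

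**Figure D1:**
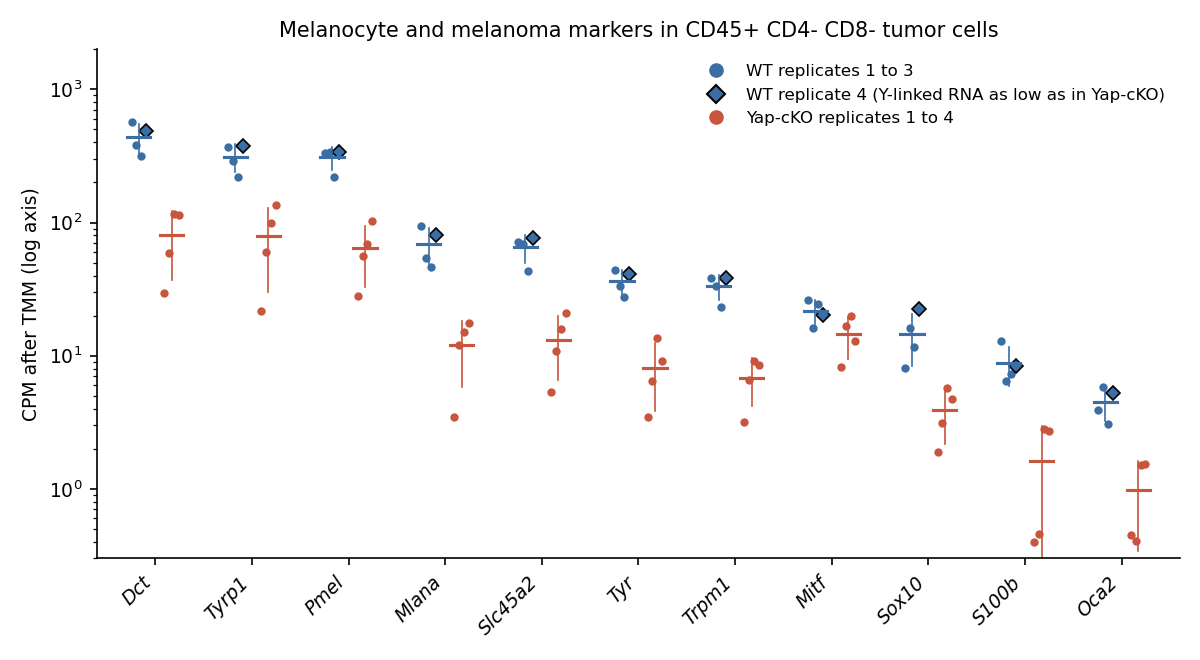
CPM on a log axis of the 11 genes of the melanoma list in each library, WT in blue with replicate 4 as a diamond and Yap-cKO in red, with group means as bars and SD as lines (n = 4). All genes but Mitf show WT libraries above Yap-cKO libraries without overlap, for Dct 318 to 570 against 29.5 to 117 CPM.

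In the melanoma list, 6 of 11 genes (Pmel, Tyr, Dct, Mlana, Slc45a2 and Trpm1) fell, against 0.925% of all genes, and 10 of 11 had genotypes that did not overlap, against 7.36% of all genes. The median log2 fold change of the list was -2.27, beside 0.015 over all genes. Mlana went from 68.8 ± 22.5 to 12.04 ± 6.20 CPM, Slc45a2, a melanosomal transporter, from 65.3 ± 15.2 to 13.2 ± 6.66 CPM, and the cation channel gene Trpm1 from 33.3 ± 7.04 to 6.85 ± 2.68 CPM. Tyrp1 (log2 fold change -1.99 ± 0.45, adjusted p = 0.0656), Sox10 (-1.90 ± 0.39, adjusted p = 0.0534), Oca2 (-2.20 ± 0.47, adjusted p = 0.0569) and S100b (-2.43 ± 0.59, adjusted p = 0.0773) were not called, and Mitf was the gene with overlapping genotypes (-0.59 ± 0.27, adjusted p = 0.284). DESeq2 called 10 of the 11 genes, as did edgeR without a count filter.

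Summed over the list, melanocyte RNA measured 1570, 1243, 943 and 1493 CPM in WT replicates 1 to 4 and 106, 232, 368 and 431 CPM in Yap-cKO replicates 1 to 4, a mean level 4.62-fold lower in Yap-cKO libraries. WT replicate 4, at 1493 CPM, was the second highest library, and with it as the lone WT library the median log2 fold change of the list was -2.49. In these bulk samples, fewer cells of a type and less RNA per cell cannot be told apart. The number of called members was 0 without WT replicate 2, WT replicate 4 or Yap-cKO replicate 2, 1 without WT replicate 1, 2 without Yap-cKO replicate 3, 3 without WT replicate 3, 6 without Yap-cKO replicate 1 and 7 without Yap-cKO replicate 4, while the median stayed between -2.49 and -2.02 over all 8.

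Further pigment-cell genes were among the calls that fell. Tspan10, Slc24a5 and Ptgds were named for the size of their fall, and the others after their values were seen. Their shared direction follows from this choice and adds no separate support. Tspan10, a tetraspanin of pigment cells, went from 28.7 ± 6.95 to 4.88 ± 1.93 CPM (log2 fold change -2.55 ± 0.31, adjusted p = 0.01). Slc24a5, a cation exchanger of the melanosome, went from 35.0 ± 8.71 to 6.67 ± 2.88 CPM. Ptgds, a prostaglandin D synthase that melanocytes also express, went from 68.0 ± 14.1 to 12.4 ± 8.16 CPM. Mc1r, the melanocortin receptor, Pax3, a neural crest transcription factor, Gpr143, a melanosomal receptor, and Rab38, a melanosome trafficking GTPase, had log2 fold changes of -2.20, -2.15, -2.50 and -1.93, with adjusted p = 0.0384, 0.0439, 0.0225 and 0.0381 in edgeR's test.

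**Figure D2:**
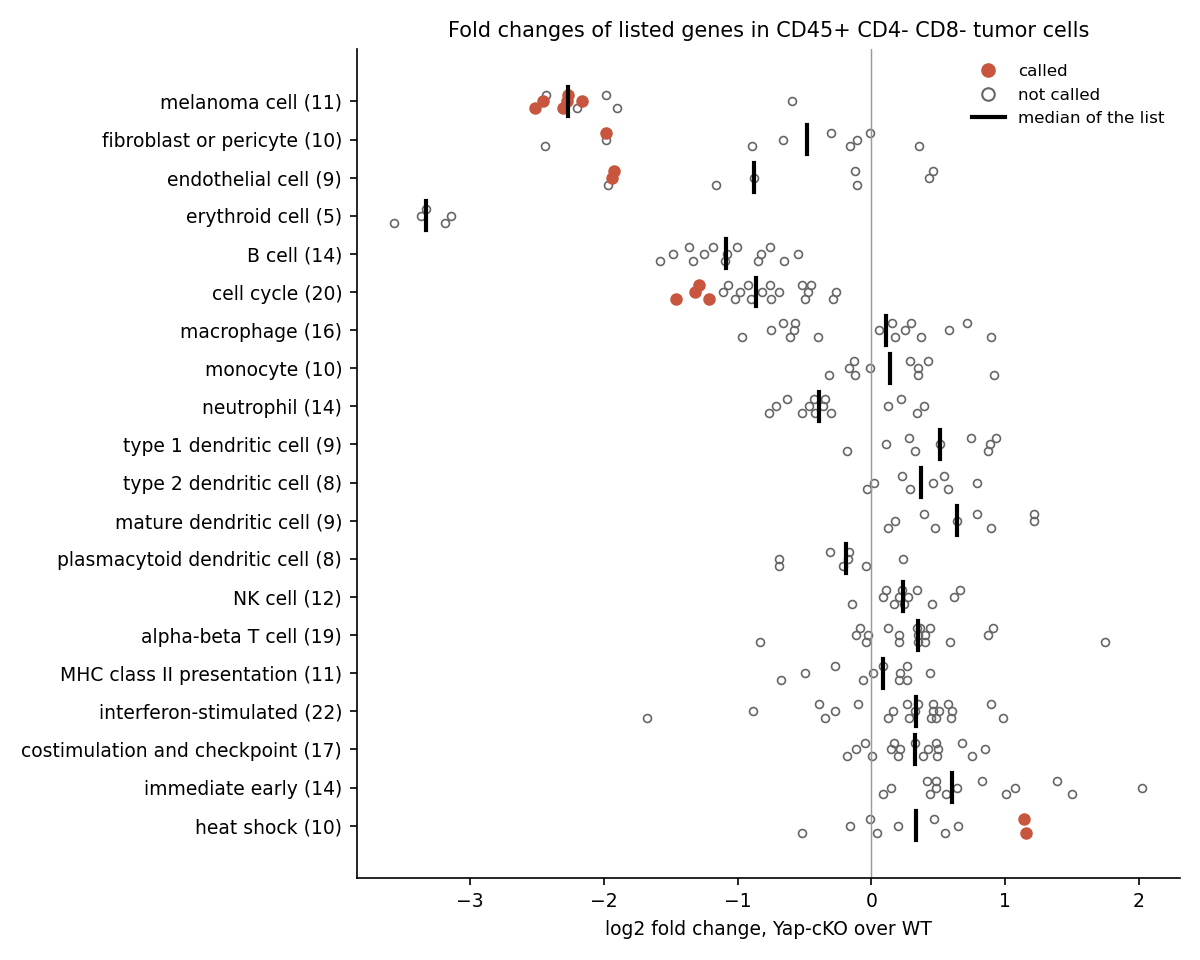
Log2 fold change of each tested gene of 20 gene lists (number tested in brackets), filled where called, with the median of each list as a black bar. The melanoma list lies to the left with a median of -2.27, the cell cycle list at -0.86, and the macrophage, monocyte and NK lists around 0.

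Genes of vessels and of mural cells fell in part. In the endothelial list, 2 of 9 tested genes fell, against 0.925% of all genes, the junction gene Esam (7.24 ± 1.45 to 1.88 ± 0.657 CPM, log2 fold change -1.94 ± 0.30, adjusted p = 0.0249) and Egfl7, a factor that endothelium secretes (6.91 ± 1.48 to 1.82 ± 0.453 CPM, -1.93 ± 0.27, adjusted p = 0.0185). Pecam1, the most abundant member and one that leukocytes also express, gave 55.5 ± 18.04 and 51.1 ± 10.07 CPM, and the summed level of the list overlapped between genotypes (83.7 to 182 against 97.1 to 144 CPM). The next most abundant members, Kdr and Eng, also overlapped and did not follow, with log2 fold changes of 0.46 ± 0.44 and -0.11 ± 0.45. Angpt2, the Tie2 ligand of remodelling vessels, measured 10.6, 10.6, 6.48 and 13.7 CPM in WT libraries and 0.747, 1.57, 1.74 and 2.16 CPM in Yap-cKO libraries. These groups lay far apart (log2 fold change -2.73 ± 0.35, adjusted p = 0.0128). Chosen after their values were seen, Esm1, a marker of endothelial tip cells, Ramp2, a receptor partner for adrenomedullin, and Cdh13 had log2 fold changes of -2.91, -2.63 and -3.16 at WT means of 6.52, 3.94 and 2.87 CPM.

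In the fibroblast or pericyte list, 1 of 10 tested genes fell, against the same share of all genes, the matrix glycoprotein gene Sparc (117, 85.7, 57.3 and 74.96 CPM in WT libraries and 10.6, 17.1, 22.1 and 34.9 CPM in Yap-cKO libraries, log2 fold change -1.98 ± 0.35, adjusted p = 0.0359). The pericyte gene Rgs5 (-1.99 ± 0.45, adjusted p = 0.0639) and smooth muscle actin Acta2 (-2.44 ± 0.56, adjusted p = 0.0656) had genotypes that did not overlap and were not called. DESeq2 and edgeR without a count filter each called 3 genes of the list, and in the endothelial list they called 4 and 3. The defining fibroblast genes stayed low and overlapped: Col1a2 and Dcn gave log2 fold changes of -0.01 and -0.11, and Pdgfra and Lum were too low to test. The sum of the list was 117 to 177 CPM in WT libraries and 30.1 to 69.3 CPM in Yap-cKO libraries, of which Sparc contributed 83.7 and 21.2 CPM on average. The call of Sparc was kept only without Yap-cKO replicate 4, and of the endothelial calls 2 were kept without Yap-cKO replicate 4, 1 without WT replicate 3 or Yap-cKO replicate 1 and 0 without any other library.

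Hemoglobin RNA was lower in most Yap-cKO libraries and did not pass the test. Hbb-bs, an adult beta-globin gene, measured 465, 66.7, 418 and 440 CPM in WT libraries and 15.5, 18.1, 13.4 and 87.9 CPM in Yap-cKO libraries, so that WT replicate 2 lay below Yap-cKO replicate 4. The log2 fold change was -3.37 ± 0.75 (adjusted p = 0.0632). The 5 tested erythroid genes had log2 fold changes of -3.57 to -3.14, 0 called in edgeR, all 5 with an unadjusted p under 0.05, and 2 called by DESeq2. In edgeR, 4 were called without Yap-cKO replicate 4, 4 in the fit to all 16 CD45 libraries and 5 without a count filter.

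Genes of dividing cells fell in part. In the cell cycle list, 4 of 20 genes fell, against 0.925% of all genes: the mitotic kinase gene Cdk1, its partner cyclin gene Ccnb1, the survivin gene Birc5 and Ube2c, a ubiquitin-conjugating enzyme of the anaphase-promoting complex. Cdk1 measured 44.2, 29.1, 27.7 and 24.6 CPM in WT libraries and 8.17, 10.6, 12.9 and 13.9 CPM in Yap-cKO libraries (log2 fold change -1.46 ± 0.24, adjusted p = 0.0282). The lowest WT library, replicate 4, was above the highest Yap-cKO library, replicate 4. All 20 genes had a negative log2 fold change, 14 of 20 had genotypes that did not overlap, against 7.36% of all genes, and the median was -0.86. None of the 4 calls was kept when any library but Yap-cKO replicate 4 was left out. The replication genes of the list were closer to 0: Mcm6, Mcm3 and Pcna gave -0.52, -0.29 and -0.26 and were not called.

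Summed over the list, cell cycle RNA was 861, 797, 673 and 671 CPM in WT libraries and 463, 425, 506 and 554 CPM in Yap-cKO libraries, 1.54-fold lower on average. With WT replicate 4 as the lone WT library the median was -0.58. Melanocyte markers were lower in the same genotype. Within WT libraries, replicate 1 was highest on both lists, at 1570 CPM for the melanoma list. Replicates 3 and 4 were nearly level on the cell cycle list and stood at 943 and 1493 CPM on the melanoma list. With the mean level of melanocyte markers, together with that of the endothelial and fibroblast or pericyte lists, as a covariate the median of the cell cycle list was -0.11. That of the melanoma list was -0.19, a shift that was built in, because the covariate holds this list itself. Genotype accounted for a share of 0.822 of that covariate, so the contributions of genotype and of these markers cannot be told apart.

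**Figure D3:**
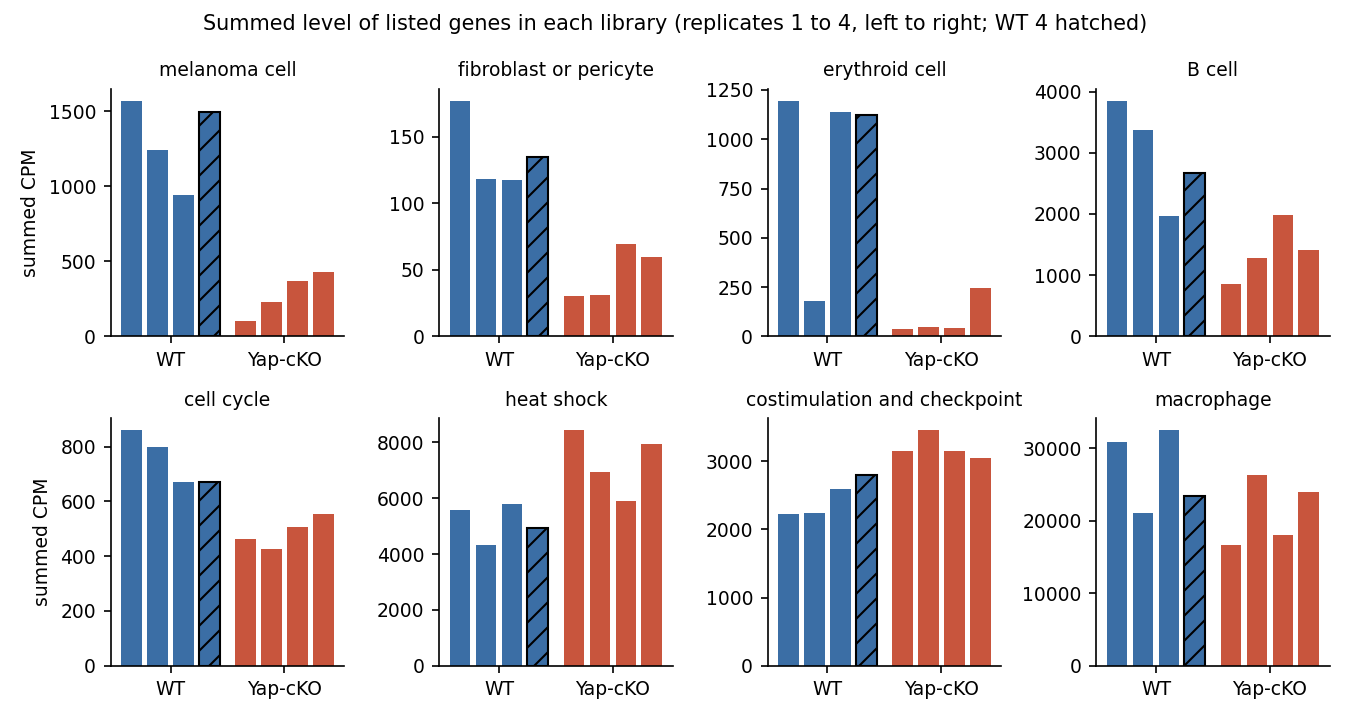
Summed CPM of 8 gene lists in each library, WT in blue with replicate 4 hatched and Yap-cKO in red, on axes that start at 0. The melanoma (943 to 1570 against 106 to 431 CPM), fibroblast or pericyte and cell cycle sums do not overlap between genotypes, heat shock and costimulation sums are higher in Yap-cKO libraries, and macrophage sums overlap.

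B cells, which make up much of the gate in lymphoid tissue, gave differences in 1 direction that did not pass the test. None of the 14 genes of the B cell list was called in edgeR (4 without a count filter and 4 in the fit to all 16 CD45 libraries), while all 14 had a negative log2 fold change, 10 had an unadjusted p under 0.05, DESeq2 called 6, and the median was -1.09. Cd79a measured 587, 430, 307 and 355 CPM in WT libraries and 66.3, 149, 239 and 147 CPM in Yap-cKO libraries, which did not overlap (log2 fold change -1.48 ± 0.35, adjusted p = 0.0686). Ms4a1, a B-cell membrane protein gene, overlapped between genotypes. The list summed to 3849, 3375, 1973 and 2668 CPM in WT libraries and 854, 1287, 1982 and 1405 CPM in Yap-cKO libraries, with WT replicate 3 at the level of Yap-cKO replicate 3. With the melanoma, endothelial and fibroblast markers as a covariate the median of this list was positive, at 0.65. Genotype accounted for a share of 0.822 of that covariate, so here too the contributions of genotype and of these markers cannot be told apart.

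Some genes outside that list that B or plasma cells express did fall. Which cells of the gate carried this RNA was not tested. Ly6d, a surface protein of lymphoid progenitors and B-lineage cells, measured 313, 251, 203 and 183 CPM in WT libraries and 96.5, 92.7, 94.8 and 120 CPM in Yap-cKO libraries (log2 fold change -1.23 ± 0.19, adjusted p = 0.0249). Mzb1, an endoplasmic reticulum cofactor of antibody assembly, measured 73.7, 52.4, 47.9 and 41.6 CPM against 21.6, 19.1, 20.5 and 23.9 CPM (-1.34 ± 0.19, adjusted p = 0.0185). Both genes were tighter within Yap-cKO than within WT libraries, and WT replicate 4 was the lowest WT library at each. The lambda light chain constant genes Iglc2 (137 ± 46.1 to 47.5 ± 15.2 CPM) and Iglc3, which resemble each other so that reads could be split between them, had log2 fold changes of -1.53 and -1.498 and were both called lower. The other plasma cell genes did not follow: Xbp1 gave 0.16 ± 0.17 (adjusted p = 0.653) and Sdc1 0.53 ± 0.19 (adjusted p = 0.202), and Mzb1 was the only one of 6 tested members that was called.

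Yap1 itself was low in this population. It measured 4.496, 2.21, 3.61 and 3.44 CPM in WT libraries and 1.20, 1.57, 1.65 and 1.53 CPM in Yap-cKO libraries, which did not overlap, and it was not called (log2 fold change -1.20 ± 0.29, adjusted p = 0.0777). In tumor CD4+ and CD8+ T cells of the same series Yap1 was called lower, from 22.4 ± 5.16 to 3.73 ± 2.16 CPM and from 23.5 ± 7.04 to 5.06 ± 1.89 CPM. The WT libraries of these T cells also held more melanoma-list RNA than the Yap-cKO libraries. Its sums were 6378 to 19100 against 202 to 2961 CPM in CD4+ TILs and 4719 to 17080 against 52.9 to 3010 CPM in CD8+ TILs. The share of such RNA in the Yap1 differences was not tested. In CD45 TILs, the Yap1 relative Wwtr1, which encodes Taz (-1.85 ± 0.43, adjusted p = 0.0664), and Tead2 (-1.50 ± 0.33, adjusted p = 0.0602) also had genotypes that did not overlap, without being called. The most abundant members of the Hippo list lay on the other side of 0, with Mob1a at 0.43 ± 0.17 (adjusted p = 0.225), Lats2 at 0.60 ± 0.32 and Stk4 at 0.32 ± 0.21. Of 14 tested genes of this list, 9 had a positive and 5 a negative log2 fold change. None was called in edgeR, and 6 had an unadjusted p under 0.05, of which 4 were lower and 2 higher. DESeq2 called 3 and edgeR without a count filter 1.

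Of 18 tested Yap and TEAD target genes, 2 fell, against 0.925% of all genes. Ccn2, which encodes connective tissue growth factor, measured 8.73, 10.3, 4.12 and 11.8 CPM in WT libraries and 0.548, 2.43, 1.48 and 1.42 CPM in Yap-cKO libraries (log2 fold change -2.57 ± 0.45, adjusted p = 0.0358). Igfbp3, a carrier of insulin-like growth factors, measured 46.1, 93.9, 42.5 and 28.6 CPM against 11.7, 14.9, 6.39 and 11.9 CPM (-2.24 ± 0.38, adjusted p = 0.0313). The paralog Ccn1 had genotypes that did not overlap (-1.89 ± 0.56, adjusted p = 0.129) and was not called. The targets with the highest levels gave positive values that did not pass, with the receptor kinase gene Axl at 0.54 ± 0.32, Nuak2 at 0.59 ± 0.30 and Myof at 0.84 ± 0.32, and the median of the list was 0.24. Of the calls, 1 was kept without WT replicate 3 or Yap-cKO replicate 4 and 0 without any other library. The TEAD core GGAATG, on either strand, lay before 15 of the 87 genes that fell with an entry (17.2%) and before 14.4% of all genes.

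Among the 9 genes that rose were 7 protein-coding genes. Hspa1a and Hspa1b, neighbouring genes for the inducible Hsp70 chaperone, are nearly identical, so that reads could be split between them and each value alone is uncertain. Their upstream windows are shown because they differ at 3 of 250 bases (98.8% identity), and the capitals mark a heat shock element core, GAANNTTC, found before 7.73% of all genes and before 5 of 7 genes of the heat shock list with an entry.
Hspa1a, chr17:34972157-34972406, minus strand: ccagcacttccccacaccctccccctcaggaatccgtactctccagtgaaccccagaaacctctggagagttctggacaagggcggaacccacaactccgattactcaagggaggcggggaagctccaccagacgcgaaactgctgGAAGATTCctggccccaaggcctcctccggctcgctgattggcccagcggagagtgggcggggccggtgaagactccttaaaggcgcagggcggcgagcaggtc
Hspa1b, chr17:34959239-34959488, minus strand: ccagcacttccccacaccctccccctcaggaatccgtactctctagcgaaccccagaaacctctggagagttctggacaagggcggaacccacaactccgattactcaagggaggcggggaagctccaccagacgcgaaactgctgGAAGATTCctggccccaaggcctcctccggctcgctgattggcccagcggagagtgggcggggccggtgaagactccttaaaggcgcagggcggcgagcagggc
Hspa1a measured 773, 562, 751 and 807 CPM in WT libraries and 1921, 1361, 1197 and 1901 CPM in Yap-cKO libraries (log2 fold change 1.14 ± 0.20, adjusted p = 0.0359). Hspa1b measured 791, 583, 695 and 942 CPM against 1847, 1512, 1360 and 1986 CPM (1.16 ± 0.20, adjusted p = 0.0321). All Yap-cKO libraries were above all WT libraries at both. The rest of the heat shock list did not move as a block: 2 of 10 genes were called higher, against 0.0661% of all genes, Hsph1 gave 0.65 ± 0.17 (adjusted p = 0.0923), Hspa8 0.20 ± 0.18 and Hsp90aa1 -0.01 ± 0.36, and Hspe1 -0.52 ± 0.21. Neither call was kept when any library but Yap-cKO replicate 3 was left out.

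Tnfaip3 encodes A20, a ubiquitin-editing enzyme that limits NF-kB signalling. It measured 192, 229, 289 and 229 CPM in WT libraries and 625, 441, 530 and 434 CPM in Yap-cKO libraries (log2 fold change 1.11 ± 0.18, adjusted p = 0.0282). Gata3, the transcription factor of type 2 lymphocytes, innate and T alike, measured 2.09, 2.72, 2.37 and 3.49 CPM against 8.32, 7.18, 7.07 and 5.48 CPM (1.39 ± 0.25, adjusted p = 0.0359). It was the 1 called member of the 10 tested genes of the innate lymphoid or gamma-delta T cell list, and the call was lost when any library other than Yap-cKO replicate 4 was left out. The other abundant members of the list, Il7r, Klrg1 and Rora, gave 0.83 ± 0.31, 0.45 ± 0.21 and 0.51 ± 0.25 and were not called. The sum of that list was 43.1 to 68.4 CPM in WT libraries and 79.5 to 118 CPM in Yap-cKO libraries. Arc, an activity-induced gene that migratory dendritic cells also use, rose from 5.36 ± 1.30 to 14.5 ± 4.68 CPM, Lhfpl2 from 37.8 ± 7.19 to 81.0 ± 22.5 CPM and Adam23 from 7.94 ± 1.88 to 18.2 ± 4.77 CPM.

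The adjusted p alone was passed by 1.1% of all genes, and some of these stayed under the fold change threshold, so they were not called. Bhlhe40, a transcription factor of activated myeloid cells and lymphocytes, measured 319, 361, 386 and 357 CPM in WT libraries and 605, 622, 571 and 573 CPM in Yap-cKO libraries (log2 fold change 0.74 ± 0.13, adjusted p = 0.0359). Malt1, the paracaspase of the NF-kB pathway, gave 69.3 ± 6.29 and 126 ± 23.3 CPM (0.86 ± 0.17, adjusted p = 0.0417). Rab8b, a GTPase of membrane traffic, Ncoa7, Hnrnpll, a splicing regulator, and the interferon-inducible Ifi207 had log2 fold changes of 0.68, 0.99, 0.74 and 0.91 with adjusted p of 0.0439, 0.0425, 0.0412 and 0.0459.

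**Figure D4:**
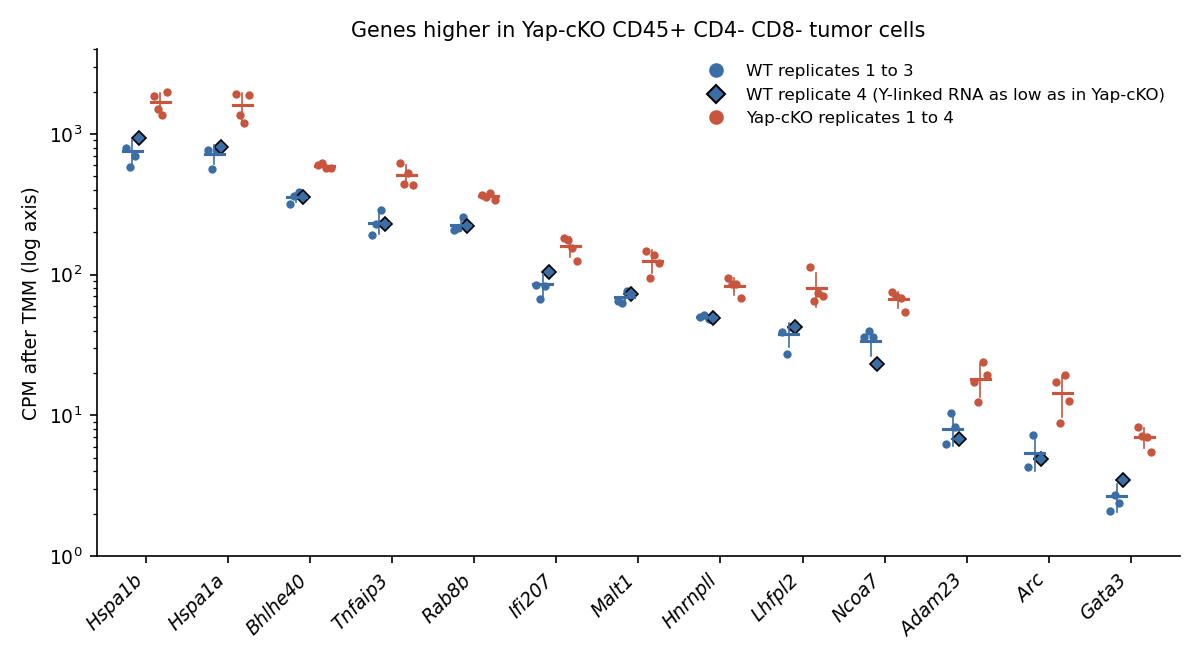
CPM on a log axis of the 7 protein-coding genes that rose and of 6 genes past the adjusted p with a log2 fold change under 1, in each library, WT in blue with replicate 4 as a diamond and Yap-cKO in red, with means as bars and SD as lines (n = 4). No gene shown has overlapping genotypes, and Bhlhe40 runs from 319 to 386 CPM in WT libraries and from 571 to 622 CPM in Yap-cKO libraries.

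Immediate early genes, which stimulation and tissue handling both induce within minutes, lay above 0 without being called. All 14 lay on the positive side, the median being 0.60, 0 were called in edgeR, 5 had an unadjusted p under 0.05, DESeq2 called 2 and edgeR without a count filter 1. Nr4a2, an orphan nuclear receptor, had genotypes that did not overlap (39.2, 30.1, 79.2 and 23.8 CPM in WT libraries and 379, 111, 125 and 86.0 CPM in Yap-cKO libraries, log2 fold change 2.03 ± 0.52, adjusted p = 0.0876), as did Atf3 (0.83 ± 0.20, adjusted p = 0.073). The most abundant members, Dusp1, Junb and Fos, overlapped. With WT replicate 4 as the lone WT library the median of the list was 0.09.

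The myeloid cells that dominated the libraries showed no called marker gene. In the macrophage list 0 of 16 genes were called by edgeR or DESeq2, the median was 0.11, and 5 of 16 had an unadjusted p under 0.05, of which 3 were lower and 2 higher. Apoe, a lipid carrier of tissue macrophages, was among the lower genes (-0.75 ± 0.25, adjusted p = 0.17). None of the 10 monocyte genes reached an unadjusted p of 0.05. Among the 14 neutrophil genes the calprotectin subunits S100a8 and S100a9 gave -0.63 ± 0.77 and -0.43 ± 0.79, at WT levels of 456 ± 290 and 430 ± 285 CPM. None of the 14 was called by either tool or reached an unadjusted p of 0.05.

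Dendritic cell lists differed in sign. The medians were 0.52 for type 1, 0.38 for type 2, 0.64 for mature and -0.19 for plasmacytoid dendritic cells, with 7 of 8 plasmacytoid genes negative, and 0 genes of the 4 lists were called in edgeR, while DESeq2 called 1 gene of the mature list. In the mature list all 9 genes had a positive log2 fold change and 4 an unadjusted p under 0.05. Fscn1, the actin bundler of migrating dendritic cells, measured 21.9, 126, 124 and 125 CPM in WT libraries and 237, 168, 363 and 152 CPM in Yap-cKO libraries (1.21 ± 0.48, adjusted p = 0.231). Ccr7, the receptor that guides them to lymph nodes, gave 0.13 ± 0.21 and overlapped.

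Antigen presentation lists were close to 0, with medians of 0.09 for class II and 0.15 for class I. The interferon-stimulated list had a median of 0.34, with 16 of 22 genes positive. The class II genes Cd74 and H2-Ab1 gave 0.27 ± 0.20 and 0.22 ± 0.22, and the class I genes H2-D1 and B2m 0.04 ± 0.17 and -0.01 ± 0.21, and 0 of 45 tested genes of the 3 lists were called by edgeR or DESeq2, 6 having an unadjusted p under 0.05. With WT replicate 4 as the lone WT library the median of the interferon-stimulated list turned from 0.34 to -0.33, and 1 of its genes was called lower. NK markers were also close, with 0 of 12 called by either tool, 3 at an unadjusted p under 0.05, and Ncr1 at 0.21 ± 0.16. The costimulation and checkpoint list had 0 of 17 called by either tool and 4 at an unadjusted p under 0.05, and its sum was higher without overlap (2228 to 2803 against 3044 to 3458 CPM, median log2 fold change 0.33). Lilrb4a, an inhibitory receptor of myeloid cells, gave 0.85 ± 0.26 (adjusted p = 0.135) and Sirpa, the receptor for CD47, 0.42 ± 0.20 (adjusted p = 0.307).

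Genes linked to macrophage tissue repair, all but Vegfa overlapping when taken singly, stood apart as a sum. The sum was 7195, 4366, 9249 and 8193 CPM in WT libraries and 11740, 10280, 9414 and 10580 CPM in Yap-cKO libraries. Vegfa, the vessel growth factor, had genotypes that did not overlap (69.0, 70.2, 147 and 140 CPM against 286, 322, 214 and 178 CPM, log2 fold change 1.23 ± 0.30, adjusted p = 0.0771), and the matrix proteins Thbs1 and Fn1 made up much of the sum at 1.01 ± 0.37 and 0.91 ± 0.45. Of the 19 genes 0 were called in edgeR, 5 had an unadjusted p under 0.05, DESeq2 called 1 higher and 1 lower, and edgeR without a count filter called 1 higher.

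Several called genes had the same difference outside the tumor. In CD45+ CD4- CD8- cells of tumor-draining lymph nodes (TDLNs), 8 of 13426 genes (0.0596%) were called, and 5 of these were among the 135, which is 62.5% of the TDLN calls and 3.7% of the tumor calls. They were the ribosomal protein pseudogene Rps3a3, Gm46223, Gm7600, Cnbd2 and Miga1, a regulator of mitochondrial fusion. Only 63 of the 135 genes could be tested in TDLNs, and their median log2 fold change was -0.26 there and -1.62 in CD45 TILs. Rps3a3, a processed pseudogene whose reads can be shared with its parent gene, measured 83.5, 50.4, 63.2 and 48.0 CPM in WT libraries and 0.299, 0.354, 0.677 and 0.737 CPM in Yap-cKO tumor libraries. It was also at 54.6 ± 6.04 and 1.07 ± 0.163 CPM in TDLNs. Miga1 measured 121, 116, 141 and 103 CPM against 43.1, 45.4, 58.4 and 61.1 CPM in tumors (log2 fold change -1.21 ± 0.17, adjusted p = 0.0185) and 188 ± 14.9 against 70.5 ± 3.98 CPM in TDLNs. Gm4956, with at most 1 count in any WT tumor library, was at least 13.9-fold higher in Yap-cKO libraries against a floor of 3 counts per library.

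Melanocyte, fibroblast and hemoglobin genes were low in TDLNs, where the melanoma list summed to 9.38 to 25.9 CPM in WT libraries and 5.86 to 13.1 CPM in Yap-cKO libraries, and B cell genes were high, at 19070 to 22130 CPM. The B cell median there was 0.025 and the cell cycle median -0.37. A test of whether the genotype difference changed between tumor and TDLN called 0 of 14861 genes in edgeR, with 1247 at an unadjusted p under 0.05 and 119 called by DESeq2. No gene named here was thus shown to differ between the tissues by the main test, Ly6d (adjusted p = 0.256) and Tnfaip3 (adjusted p = 0.23) included.

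The T cells sorted from the tumors carried the same kind of RNA at higher levels. The melanoma list summed to 6378 to 19100 CPM in WT CD4+ TILs and 4719 to 17080 CPM in WT CD8+ TILs, against 202 to 2961 and 52.9 to 3010 CPM in Yap-cKO libraries. Of the 135 genes, 131 could be tested in each T-cell population, and 63 were called in CD4+ TILs, 62 of them in the same direction, and 95 in CD8+ TILs, all in the same direction. Over all tested genes, 1139 of 14200 were called in CD4+ TILs and 1718 of 14116 in CD8+ TILs. The median log2 fold changes of those 131 genes were -2.07 in CD45 TILs, -2.53 in CD4+ TILs and -2.95 in CD8+ TILs. These calls are 5.53% of all calls in either T-cell comparison, and the 3 sorts came from tumors of the same genotypes and may share mice.

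**Figure D5:**
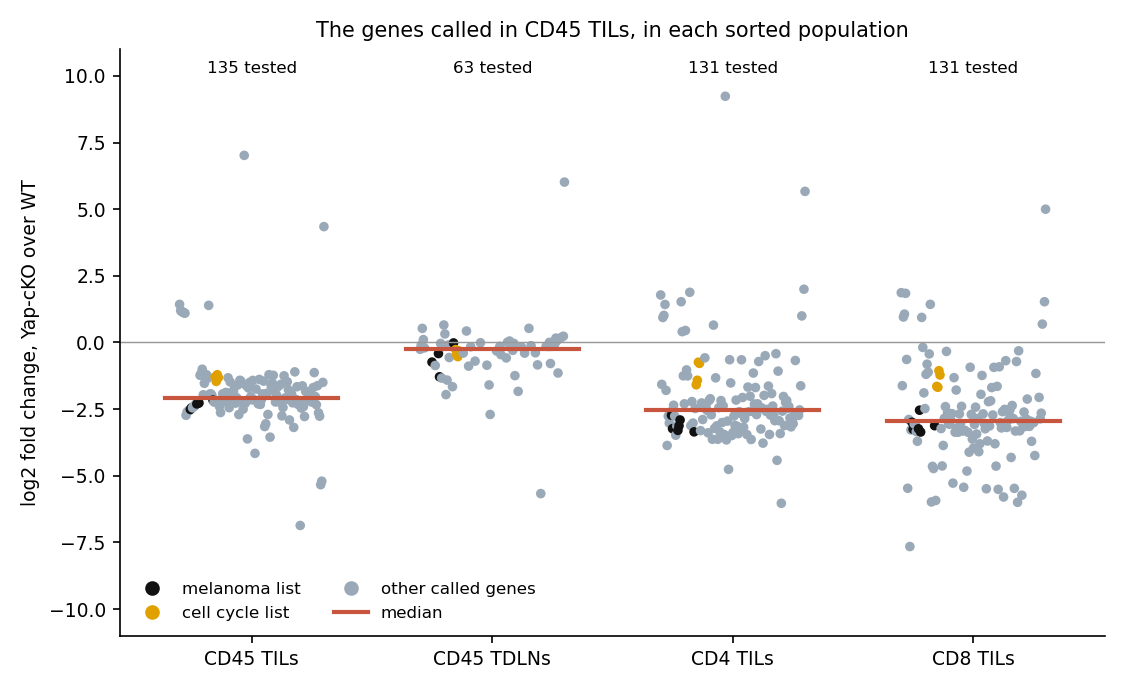
Log2 fold change, Yap-cKO over WT, of the 135 genes called in CD45 TILs, in that population and in CD45 TDLNs, CD4 TILs and CD8 TILs, with melanoma genes in black, cell cycle genes in yellow and the median as a red bar. The members were chosen in CD45 TILs. For the 131 genes tested in each T-cell population the medians are -2.07 in CD45 TILs, -2.53 in CD4 TILs and -2.95 in CD8 TILs. For the 63 genes tested in TDLNs they are -0.26 there and -1.62 in CD45 TILs.

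Tests of the difference between populations named the genes that did separate. Against CD4+ TILs, 253 of 15201 genes (1.66%) differed in their genotype effect, 5 of the 135 among them, and against CD8+ TILs 275 of 15098 (1.82%), again with 5 of the 135. Adam23 rose in CD45 TILs and was lower in CD4+ TILs, at 3.12 ± 0.771 CPM in WT libraries and 1.05 ± 0.212 CPM in Yap-cKO libraries (difference of log2 fold changes 2.80, adjusted p = 0.00269). Lhfpl2 differed in the same sense (2.91, adjusted p = 0.0398). Ly6d fell in CD45 TILs, and in CD8+ TILs, where it was not called, it was at 2.37 ± 0.413 and 4.55 ± 3.05 CPM (difference -2.18, adjusted p = 0.0429). The difference was not called for Dct, Pmel, Cdk1, Hspa1a, Tnfaip3 or Gata3 against either population. Every call of the CD8+ comparison was lost when any 1 CD45 TIL library was left out.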

How the data were processed

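Gene expression was measured in sorted CD45+ CD4- CD8- cells of WT and Yap-cKO tumors (4 libraries each). Per the labels, the authors trimmed reads with Trimmomatic and quantified them with Salmon 0.9.1 (build mm10), and they deposited for each transcript an expected count without normalization, a TPM scaled within each library, and an effective length. Transcripts were matched without version to GENCODE M21 on GRCm38 (111787 of 112092), and the deposited expected counts were summed for 34932 genes and rounded. The deposited TPM values served for levels per length and, with the effective lengths, for average transcript length offsets.

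After removal of chromosome Y genes and 1 X-linked gene, genes reaching 10 counts in 4 or more libraries entered edgeR 4.0.16 (R 4.3.3), with TMM scaling, genotype alone in the quasi-likelihood model, and the F test. Interactions with tissue or population were fitted over 16 libraries. DESeq2 1.42.0, other scalings, filters, offsets, covariates, blocks and left-out libraries were alternatives. Named genes were Yap1, 4 markers, the 12 called protein-coding genes with the largest change in each direction at a mean of at least 5 CPM with genotypes apart (completed by the smallest p), the 12 called genes with the highest level, and of each list the called members and the 3 highest. The members and lists were chosen with earlier results of these data known. Counts do not use strand, and intervals of counting error were not used, since amplified reads carried no molecular identifiers. Genes outside this rule (such as Kcnj13, Trim63, Cnbd2 and Gm4956) were chosen after their values were seen. Some named genes are not reported here. Of the fits, only the edgeR fit of the CD45 TIL comparison was run on simulated counts with known changes. Promoter windows are from RefSeq (GRCm38.p6). No 2 libraries of a genotype were identical or within sampling noise.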

Additional observations from a re-analysis of the deposited data

Results flagged for a closer look

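In 17 of 290 groups of 4 libraries of the named genes, 1 library lay apart from the other 3 by Dixon's criterion, which chance alone does in about 1 group in 20. WT replicate 2 and Yap-cKO replicate 4 were the separate libraries at the hemoglobin genes Hbb-bs (66.7 and 87.9 CPM), Hba-a2 (68.8 and 100.2 CPM) and Hba-a1 (30.4 and 36.8 CPM). WT replicate 4 was low for Ccr7 (463 CPM) and high for the interferon response gene Irf1 (439 CPM). WT replicate 3 was low for Pmel (218 CPM) and high for the monocyte gene F13a1 (1069 CPM). WT replicate 1 was low for Fscn1 (21.9 CPM) and high for Trbc1 (22.2 CPM) and Pcna (164 CPM), and WT replicate 2 was low for Plin2 (433 CPM). Among Yap-cKO libraries, replicate 1 was high for the mast cell chymase gene Cma1 (24.3 CPM), replicate 3 low for Ldha (1988 CPM) and replicate 4 high for Ly6d (120 CPM).

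The genotype effect in CD45 TILs differed from that in CD4+ TILs for Adam23 (2.80 on the log2 scale), Lhfpl2 (2.91) and Cep85 (-1.54), and from that in CD8+ TILs for Adam23 (2.82), Lhfpl2 (1.74), Ccn2 (5.09) and Ly6d (-2.18), by the interaction term in edgeR. At Ccn2 the effect in CD8+ TILs was the larger one, a log2 fold change of -7.66 beside -2.57 here.

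Y-linked RNA, left out of all tests, reached 115 CPM in WT libraries and 3.37 CPM at most in Yap-cKO libraries.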

How the results depend on the processing

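The 135 calls became 525 with DESeq2, which kept 134 of them, 246 without a count filter, 1 with the replicate block, 1 with a covariate of Y-linked genes and 0 with a covariate of melanoma, endothelial and fibroblast markers. A further setting took WT replicate 4 as the lone WT library (assumed to vary like the Yap-cKO libraries). There 110 of the 135 could be tested, and all 110 kept their sign. With libraries left out in turn the count ran from 1 to 118. Every one of the 135 that could be tested kept its sign under these settings, except under the marker covariate, where 132 did and Ccnb1 reached 0.031. The cause of these changes was not tested, but WT replicate 4 and the covariates leave fewer samples or degrees of freedom, and genotype accounted for a share of 0.565 of the Y-linked covariate. Upper quartile and RLE scaling, a minimum of 50 counts, length offsets, adjusted p alone and all 16 CD45 libraries gave 96 to 171 calls.

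The 8 calls in TDLNs became 15 with DESeq2, 1 with the replicate block and 1 to 5 with libraries left out. The 0 calls of the tissue interaction became 119 with DESeq2, 2 without a filter and 0 to 2 with libraries left out. The 253 calls against CD4+ TILs became 689 with DESeq2 and 147 to 1286 with libraries left out, and the 275 against CD8+ TILs 1000 and 0 to 1057. Same-numbered WT and Yap-cKO libraries deviated in opposite directions (correlations of -0.398 to -0.201 over genes), so the numbers were not taken as pairs.

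Values under about 0.161 CPM are not told apart from 0.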
